A study of Rattus norvegicus with 10 samples.

Results

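The comparison set muscle sampled 1 h after the first acupuncture session (AP_1h) against muscle sampled before therapy (RA_0), in rats with arthritis. Each group had 2 RNA-seq libraries. Levels are given in CPM, read counts scaled to a common library size. A transcript belonged to the comparison where it reached at least 1 CPM in both libraries of AP_1h or in both libraries of RA_0. That held for 9957 of the 17221 transcripts in the table (57.8%): 9208 reached the level in both groups, 334 in RA_0 alone and 415 in AP_1h alone. Alas2, Ankrd37 and Arhgap22 stood just inside the limit, each at 1.04 CPM in the library that decided, and Akr1c3, Chrng and Deadc1 stood just outside it at 0.979 CPM. Of the remaining transcripts, 4048 were at 0 in all 4 libraries.

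All animals were female Wistar rats in which arthritis had been induced by immunisation with collagen, and RA_0 shared this induction with every other group. Acupuncture was manual: needles were inserted on both sides at points of the lower back and the leg and were twirled. Another group, PLA_1h, was sampled 1 h after a placebo, an injection of saline into the peritoneum, and its 2 libraries are given beside the results. The sampled tissue was muscle beneath the skin of the back around the stimulated points, and PLA_1h had received no needle there. At which of the points each sample was cut is not given in the sources used here. Animals were killed for sampling, so the groups held different animals and no animal was measured before and after. All were sampled under deep general anaesthesia after blood had been drawn. Their age and the hour of day at sampling are not given in the sources used here. Whether the 2 libraries of a group came from 2 animals, or from animals handled apart, is not stated either. The p-values measure the spread between these libraries only.

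As background, skeletal muscle is a mosaic of fibres. Slow fibres carry their own myosin, troponins and calcium pump and burn fuel in mitochondria, while fast fibres carry other forms of the same proteins and rely more on glycogen. Muscle also keeps a circadian clock, in which the ARNTL and CLOCK proteins drive the genes of their own repressors. It answers adrenal glucocorticoids with a known set of genes that spare glucose and break down protein, and it reads the activity of its motor nerve through acetylcholine receptors and the factor myogenin. Between the fibres lie capillaries, nerve sheath, fat, tendon cells and resident macrophages, whose transcripts are measured together with those of the fibres.

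The 4 libraries held 5371687 and 6115093 counted reads in RA_0 and 7838815 and 7835633 in AP_1h, which makes 1 CPM worth 4.19 to 9.25 reads. A transcript with 0 reads may have been present at up to 0.324 to 0.716 CPM, the worth of 3 reads, counting error only. The deeper group was therefore AP_1h. Replicates correlated with r = 0.961 in RA_0 and 0.955 in AP_1h across transcripts, which are not independent. The label of muscle was met by its markers: all 7 measured muscle markers were above the limit, and Ckm, the muscle creatine kinase, stood at 56881 and 28464 CPM in RA_0 and 32611 and 41230.5 CPM in AP_1h. Keratinocyte markers were near 0, with 1 of 9 measured above the limit (Krt10, 3.82 and 3.12 CPM in RA_0 and 3.14 and 4.76 CPM in AP_1h). Markers of other cells of the tissue were present, and the macrophage list summed to 210.2 and 194 CPM in RA_0 against 1160.0 and 273 CPM in AP_1h. AP_1h replicate 1 stood apart on that sum, and the values without it are given where a result rests on it.

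Differences are given on the scale of log2(CPM + 1) with the standard error (SE) from a limma model over all 10 libraries of the study, and a call is a Benjamini-Hochberg adjusted p under 0.05 over the 10259 transcripts tested. 3 transcripts were called (0.0292% of those tested), 2 higher (0.0195%) and 1 lower (0.00975%) in AP_1h, and 912 had an unadjusted limma p under 0.05 (8.89%). A second and looser reading, here the 2-fold rule, asked for an unadjusted limma p under 0.05 together with a difference of 2-fold or more and a mean of 1 CPM or more. It was met by 628 transcripts (6.12%), 260 of them higher in AP_1h (2.53%) and 368 lower (3.59%), and 626 of the 628 belonged to the comparison. Both AP_1h libraries lay above both RA_0 libraries for 20.6% of the transcripts tested and below them for 21.0%. With total-count scaling in place of TMM, 242 were higher and 239 lower, so the excess of lower transcripts depended on the scaling. Without RA_0 replicate 1, 151 transcripts met the 2-fold rule on the high side. Counts of members below are to be read against these shares. Transcripts that met only the 2-fold rule are described as higher or lower and not as changed, because none of them passed the adjusted test.

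Cst7, which encodes cystatin F, an inhibitor of the lysosomal cathepsins of leukocytes, stood at 5.01 and 14 CPM in RA_0 and 416 and 293 CPM in AP_1h. Both AP_1h libraries were far above both RA_0 libraries, and PLA_1h lay between them at 81.4 and 23.2 CPM. The rise was 5.21 ± 0.57 on the log2 scale (limma adjusted p 0.0358). The transcript lies on rn4 chromosome 3, 141188442 to 141199756. Against PLA_1h the difference was 2.97 ± 0.57, with a limma adjusted p of 0.445.

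Arntl, the ARNTL or BMAL1 activator of the circadian clock, stood at 2.62 and 3.86 CPM in RA_0 and 22.6 and 24.9 CPM in AP_1h, and the 4 libraries formed 2 separate and narrow pairs. The rise was 2.56 ± 0.33 on the log2 scale (limma adjusted p 0.0459; rn4 chromosome 1, 171062181 to 171162426). PLA_1h was at 17.2 and 14.2 CPM, above both RA_0 libraries as well, a difference of 1.99 ± 0.33 from RA_0.

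RGD1561161, a locus that the table names by its identifier alone, stood at 33.4 and 36.4 CPM in RA_0 and 5.62 and 7.42 CPM in AP_1h. Here PLA_1h resembled RA_0, at 40.4 and 34.9 CPM, and AP_1h alone was low. The fall was -2.26 ± 0.28 on the log2 scale (limma adjusted p 0.0459). The span of this transcript, rn4 chromosome 2, 44703932 to 45210939, overlaps that of Snx18. The library kit does not mark strand, so reads from any exon the 2 genes share could not be told apart. Whether their exons overlap was not examined. The difference of RGD1561161 from PLA_1h was -2.37 ± 0.28 with a limma adjusted p of 0.0637, the smallest of that comparison. In AP_1h against PLA_1h limma called 0 transcripts, with 414 at an unadjusted p under 0.05 and 269 that met the 2-fold rule (2.62%), 100 higher in AP_1h (0.975%) and 169 lower (1.65%). PLA_1h against RA_0 likewise had 0 calls by limma, with 266 at an unadjusted p under 0.05 and 171 that met the 2-fold rule (1.67%), 102 higher in PLA_1h (0.994%) and 69 lower (0.673%). None of the 3 calls was kept when any one of the 4 compared libraries was left out, a fit in which the lone library of its group is taken to vary like the other groups. Over these fits and the other alternatives, the log2 difference stayed between 4.55 and 5.87 for Cst7, between 1.94 and 2.84 for Arntl and between -2.44 and -1.89 for RGD1561161.

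Next to the calls stood 10 higher and 11 lower transcripts that met the 2-fold rule with the smallest unadjusted p among those whose libraries did not overlap; their limma adjusted p ran from 0.0710 to 0.101. Ucp3, a mitochondrial uncoupling protein of muscle, was at 36.3 and 103 CPM in RA_0 and 858 and 1008 CPM in AP_1h, with PLA_1h between at 403 and 399 CPM. Fkbp5, a co-chaperone of the glucocorticoid receptor, was at 21.5 and 21.7 CPM in RA_0 and 239 and 149 CPM in AP_1h. The PLA_1h libraries, at 108 and 154 CPM, overlapped those of AP_1h.

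Serpina6, the corticosteroid-binding globulin of plasma, had 1 read in both RA_0 libraries together and 130 in those of AP_1h. The ratio was 86.6 at equal depth, with an exact counting interval of 15.3 to 3.45e+03 that leaves out the spread between libraries. Serpina6 had reached the limit only through AP_1h and so was favoured to be higher there. Tnfrsf12a, the receptor of the cytokine TWEAK, was at 10.7 and 9.95 CPM in RA_0 and 37.2 and 66.6 CPM in AP_1h. Vmp1, needed for autophagy, was at 31.5 and 33.4 CPM in RA_0 and 138 and 98.5 CPM in AP_1h. All of these were higher in each AP_1h library than in either RA_0 library, which the rule of choice required.

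Among the other higher transcripts, Ogfrl1 was at 27.9 and 22.4 CPM in RA_0 and 113 and 90.5 CPM in AP_1h, and PLA_1h at 30.1 and 34.4 CPM was close to RA_0. Pde7a, a phosphodiesterase that breaks down cyclic AMP, was at 5.25 and 11.3 CPM in RA_0 and 35.8 and 70.0 CPM in AP_1h. Dapk1, a kinase of cell death and autophagy, was at 14.6 and 14.1 CPM in RA_0 and 106 and 44.8 CPM in AP_1h. Nr4a3 and Tubb6 are described with their groups. Of the 12 transcripts so chosen as higher, Cst7 and Arntl included, 6 also met the 2-fold rule against PLA_1h. In PLA_1h against RA_0, 7 met it. The first of these comparisons shares the AP_1h libraries with the choice of the 12, and the second shares the RA_0 libraries. Meeting the rule in either was thus favoured by the choice.

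The lower transcripts included 3 with a role in ion balance, fuel use and fibre type. Atp1b1, the beta subunit of the sodium pump, was at 332 and 294 CPM in RA_0 and 58.1 and 70.0 CPM in AP_1h, and its span overlaps Nme7. Ldhb, the lactate dehydrogenase subunit of oxidative tissue, was at 1099 and 512 CPM in RA_0 and 70.8 and 61.3 CPM in AP_1h. Esrrg, a nuclear receptor of oxidative muscle, was at 19.6 and 16 CPM in RA_0 and 3.78 and 3.92 CPM in AP_1h. For each of the 3, PLA_1h lay above both AP_1h libraries.

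Hoxa10, a positional homeobox gene whose span overlaps RGD1564419, was at 13.6 and 13.2 CPM in RA_0 and 1.08 and 1.54 CPM in AP_1h, while PLA_1h at 13.8 and 9.83 CPM was near RA_0. Galnt5, an enzyme that starts O-linked sugar chains, was at 23.6 and 26.3 CPM in RA_0 and 2.59 and 3.36 CPM in AP_1h. Synpo, the actin-binding synaptopodin, had a difference of -1.86 ± 0.33. Wfdc1 was at 104 and 51.1 CPM in RA_0 and 6.38 and 11.8 CPM in AP_1h and Rcor2, a partner of transcriptional repressors, at 17.4 and 8.76 CPM in RA_0 and 1.84 and 1.96 CPM in AP_1h. Zfp365, Sbk1 and Kera completed the set. Zfp365 and Kera had reached the limit only through RA_0 and so were favoured to be lower in AP_1h. Of the 12 lower transcripts, RGD1561161 included, 11 also met the 2-fold rule against PLA_1h and 3 met it in PLA_1h against RA_0. Here too, both comparisons share libraries with the choice of the 12, so neither count is separate support.

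**Figure D1:**
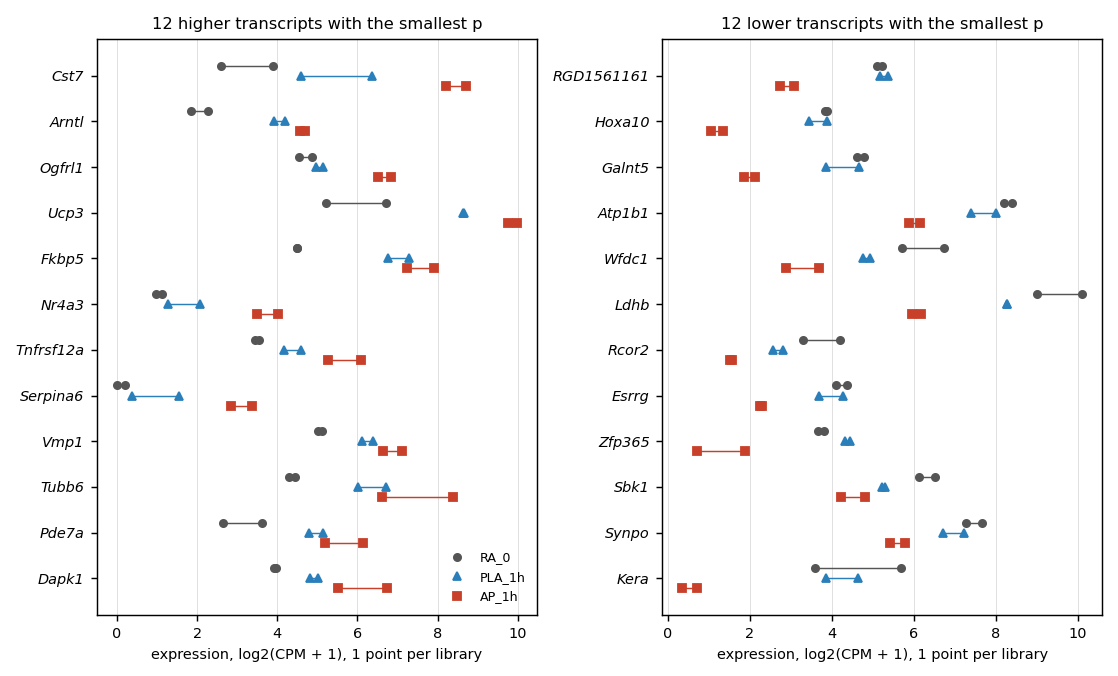
The x axis is expression as log2(CPM + 1) and each point is 1 library of RA_0 (grey circles), PLA_1h (blue triangles) or AP_1h (red squares), with a line joining the 2 libraries of a group, for the 12 higher and the 12 lower transcripts named over the whole table. AP_1h and RA_0 do not overlap for any of them, by the rule of choice, while PLA_1h overlaps AP_1h for Fkbp5 and Tubb6.

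To place these transcripts, 42 lists of genes with a shared role were read, 736 of whose genes belonged to the comparison. The lists were chosen with earlier results of these data known. Their counts are set beside background shares as a description, and this is no test of a list. A list is described by how many of its members met the 2-fold rule and by the median of its log2 differences. The median over all tested transcripts was 0.00. The lists furthest from it were those of slow fibres (-3.5), muscle identity (-1.19), MHC class II (1.12), macrophages (1.09), glucocorticoid targets (1.09) and the Z-disc (-1.06). The lists of heat shock proteins, ribosomal proteins, collagens, other positional genes and fast fibres had medians between 0.00 and 0.05. A member that reached 1 CPM through 1 group alone was picked by its level in that group, which favours a difference in that direction. This is said where such a member met the rule.

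**Figure D2:**
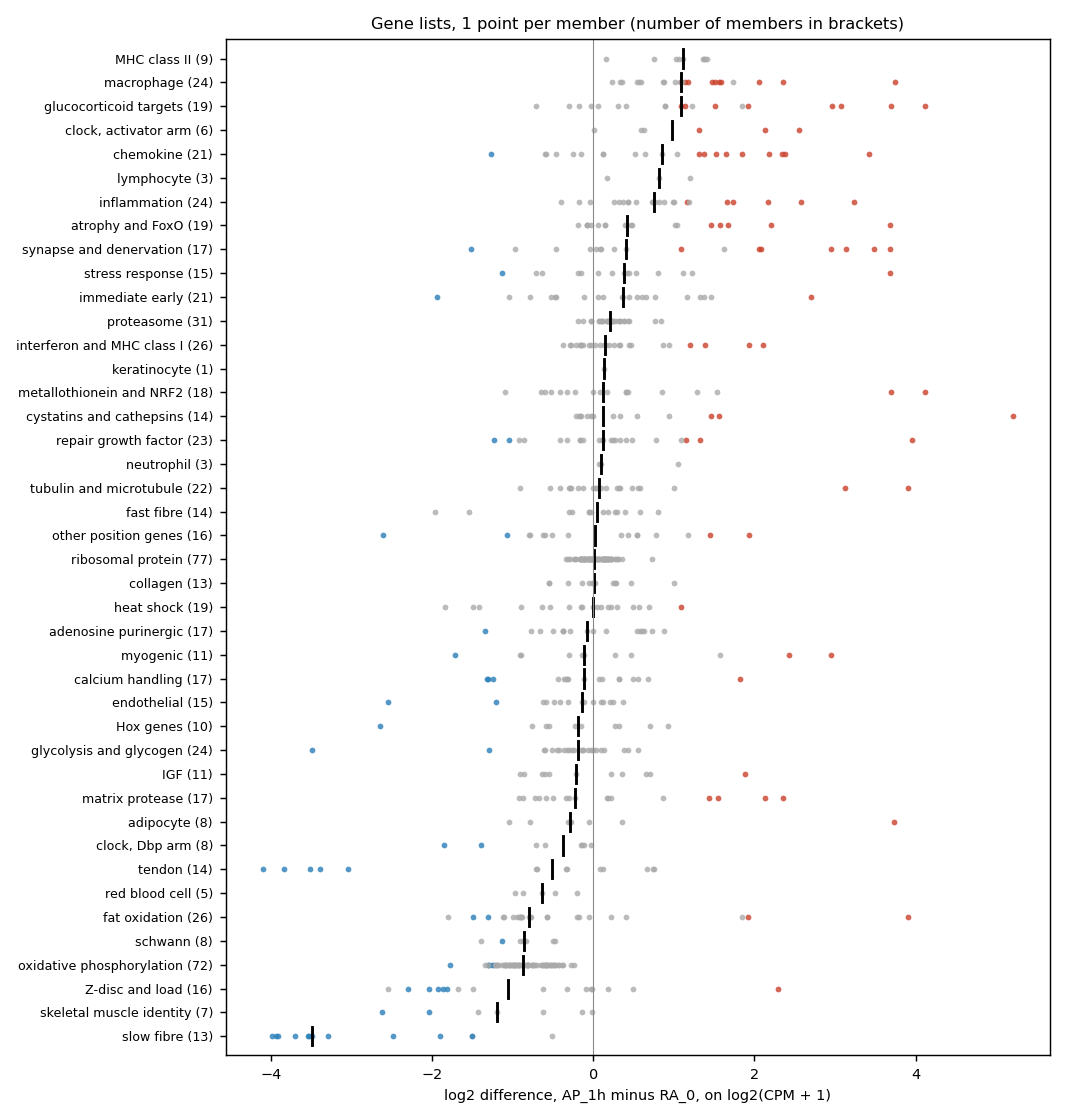
Each point is the log2 difference of AP_1h from RA_0 for 1 list member, red where it met the 2-fold rule on the high side, blue where it met it on the low side and grey otherwise, and the black bar is the median of the list. The slow fibre list lies apart at -3.5, and the lists of MHC class II, macrophages and glucocorticoid targets have medians above 1.

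The clock genes were read in 2 arms, whose medians had opposite signs. In the activator arm, Arntl with its partners and the genes known to be expressed close to its phase, 3 of 6 members met the 2-fold rule and none did so on the low side (background 2.53% higher, 3.59% lower), with a median of 0.97. Nfil3, a repressor that competes for the DNA elements of DBP, was at 21.2 and 17.5 CPM in RA_0 and 102 and 76.5 CPM in AP_1h, a difference of 2.14 ± 0.45. PLA_1h was at 19.8 and 26.9 CPM, next to RA_0, and the difference of AP_1h from PLA_1h was 1.89 ± 0.45 (limma adjusted p 0.543). Rora, the receptor that activates Arntl, was at 2.62 and 1.93 CPM in RA_0 and 8.54 and 5.88 CPM in AP_1h. Npas2 and Clock, the partners of ARNTL, did not stand apart: Clock was at 4.53 and 2.38 CPM in RA_0 and 3.57 and 8.82 CPM in AP_1h, and Npas2 was at 1.91 and 2.67 CPM in RA_0 and 1.95 and 2.66 CPM in AP_1h. Cry1, a repressor of the clock, was at 14.3 and 19.5 CPM in RA_0 and 25.6 and 25.9 CPM in AP_1h and did not meet the rule.

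In the arm of Dbp, whose genes ARNTL and CLOCK drive through E-boxes, 2 of 8 members met the 2-fold rule on the low side and all 8 differences were negative, with a median of -0.37. Those of Tef (-0.02), Per2 (-0.11), Per3 (-0.14), Bhlhe40 (-0.15) and Per1 changed sign in at least 1 alternative processing. Dbp, a transcription factor that follows the clock closely, was at 426 and 418 CPM in RA_0 and 167 and 81.3 CPM in AP_1h, a difference of -1.85 ± 0.46. PLA_1h was also low, at 137 and 181 CPM. Nr1d1, the receptor REV-ERB alpha that represses Arntl, was at 33.2 and 29.6 CPM in RA_0 and 13.7 and 9.24 CPM in AP_1h, and PLA_1h lay between at 23.2 and 21.6 CPM. The other members overlapped or nearly so, with Per1 at 116 and 140.2 CPM in RA_0 and 142 and 42.1 CPM in AP_1h and Per2 at 57.7 and 88.4 CPM in RA_0 and 81.3 and 53.7 CPM in AP_1h. The median of this arm was -0.74 without RA_0 replicate 1, -0.12 without RA_0 replicate 2, -0.70 without AP_1h replicate 1 and -0.12 without AP_1h replicate 2. Since the hour of day is not known for either group, it and the treatment cannot be told apart for these genes.

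2 promoters of the clock show the elements through which these genes are known to be wired, and both are given here for the 250 bases before the start of the gene, from RefSeq on GRCr8, 5′ to 3′ on the strand of the gene. In Arntl (RefSeq symbol Bmal1, chr1:176766078-176766327, plus strand) the capitals mark AGGTCA, the core of the element that ROR and REV-ERB receptors share. In Nr1d1 (chr10:84229455-84229704, minus strand) they mark CACGTG, the E-box. Of the 2 listed starts of Nr1d1, the one shown was picked because it held the E-box, and the other held 0.
Arntl: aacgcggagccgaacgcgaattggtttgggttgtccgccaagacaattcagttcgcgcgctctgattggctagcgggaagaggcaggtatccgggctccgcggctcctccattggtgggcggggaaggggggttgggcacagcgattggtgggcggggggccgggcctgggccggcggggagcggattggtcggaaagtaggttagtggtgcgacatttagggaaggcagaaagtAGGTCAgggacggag
Nr1d1: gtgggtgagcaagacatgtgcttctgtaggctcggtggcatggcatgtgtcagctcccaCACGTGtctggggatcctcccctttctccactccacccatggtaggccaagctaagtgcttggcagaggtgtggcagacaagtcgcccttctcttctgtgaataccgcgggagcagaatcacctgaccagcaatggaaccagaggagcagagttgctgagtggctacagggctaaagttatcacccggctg
Over 33469 RefSeq promoters of this length, searched on both strands, AGGTCA was found in 14.1% and CACGTG in 5.59%. Among the clock lists, the E-box was found in 3 of 8 matched genes of the Dbp arm and in 0 of 4 matched genes of the activator arm. These counts take any listed start of a gene, while the shares over all promoters count each start. The D-box TTATGTAA, to which DBP and NFIL3 bind, was found in 1 of 8 and 0 of 4 of them and in 0.828% of all promoters. A core of 6 bases is a match of letters and not a site of binding.

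Genes that glucocorticoids are known to induce leaned to the high side. Of 19 members, 8 met the 2-fold rule on the high side and 0 on the low side, 10 had both AP_1h libraries above both RA_0 libraries, and the median was 1.09 (PLA_1h against RA_0 0.46). Tsc22d3, the leucine zipper GILZ that carries part of the anti-inflammatory response to the hormone, was at 292 and 307 CPM in RA_0 and 864 and 848 CPM in AP_1h, a difference of 1.51 ± 0.30. PLA_1h, at 357 and 338 CPM, was near RA_0. Sgk1, a kinase induced by the hormone, was at 1.91 and 1.93 CPM in RA_0 and 6.05 and 4.48 CPM in AP_1h.

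Other members are given with their PLA_1h levels. Cdkn1a, the cell cycle inhibitor p21, was at 20.3 and 81.4 CPM in RA_0 and 368 and 286 CPM in AP_1h and at 369 and 462 CPM in PLA_1h. Pdk4, the kinase that keeps pyruvate out of the mitochondrion, was at 119 and 319 CPM in RA_0 and 561 and 979 CPM in AP_1h. Its PLA_1h values were 526 and 443 CPM. Lpin1, an enzyme of lipid synthesis, was at 60.1 and 38.8 CPM in RA_0 and 142 and 82.1 CPM in AP_1h, with PLA_1h at 49.0 and 152 CPM. Zbtb16, a zinc finger repressor, and Angptl4, an inhibitor of lipoprotein lipase, did not meet the rule, at differences of 0.90 ± 0.37 and 1.85 ± 1.01, and Per1, which answers both the hormone and the clock, had a difference of -0.71 ± 0.48.

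The metallothioneins, small proteins that bind zinc and copper and answer metals and glucocorticoids, had the largest differences of this list, and they were uneven between replicates. Mt1a was at 4.77 and 17.5 CPM in RA_0 and 426 and 41.1 CPM in AP_1h, and Mt2A was at 6.92 and 22.3 CPM in RA_0 and 618 and 88.9 CPM in AP_1h. AP_1h replicate 1 was high in both, while replicate 2 was near the PLA_1h libraries, which were at 68.5 and 32.3 CPM for Mt1a and 80.2 and 61.2 CPM for Mt2A. The rest of the metal and oxidant list did not follow: 2 of 18 members met the rule, these being the metallothioneins, and the median was 0.12, or -0.19 without AP_1h replicate 1. Hmox1, heme oxygenase, was at 4.29 and 15.4 CPM in RA_0 and 43.3 and 10.6 CPM in AP_1h, and Nqo1, a quinone reductase, at 58.7 and 27.6 CPM in RA_0 and 37.0 and 17.4 CPM in AP_1h. Slc7a11, the cystine transporter, had 2 reads in RA_0 and 46 in AP_1h, a ratio of 15.3 (4.01 to 130) that did not meet the rule.

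The promoters of both metallothioneins are shown because both genes met the rule, with the cores of the metal response element in capitals (TGCACNC or TGCGCNC on either strand). The stretch of Mt1a (RefSeq Mt1) is chr19:10832976-10833225 and that of Mt2A chr19:10838709-10838958 on GRCr8, both on the minus strand.
Mt1a: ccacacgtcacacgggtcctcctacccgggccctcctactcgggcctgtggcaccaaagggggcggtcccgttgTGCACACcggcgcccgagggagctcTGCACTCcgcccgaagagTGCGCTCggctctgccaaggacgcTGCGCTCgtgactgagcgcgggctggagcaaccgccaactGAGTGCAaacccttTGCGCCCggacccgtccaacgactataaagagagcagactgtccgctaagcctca
Mt2A: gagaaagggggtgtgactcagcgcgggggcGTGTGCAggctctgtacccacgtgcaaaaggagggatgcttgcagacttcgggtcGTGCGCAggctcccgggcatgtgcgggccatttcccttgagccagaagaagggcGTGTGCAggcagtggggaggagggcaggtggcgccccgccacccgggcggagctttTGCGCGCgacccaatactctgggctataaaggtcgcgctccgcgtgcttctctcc
The 250 bases of Mt1a held 6 cores and those of Mt2A held 4. Among all 33469 promoters, 20.6% held at least 1 core, 4.90% at least 2 and 0.0747% at least 5, and 4 of 15 matched genes of the metal and oxidant list held at least 1.

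Genes of muscle wasting, most of them targets of FOXO factors, were partly higher. Of 19 members, 5 met the 2-fold rule on the high side and 0 on the low side, with a median of 0.42, 0.10 without AP_1h replicate 1 and 0.93 without AP_1h replicate 2. The ubiquitin ligase Trim63, or MuRF1, was at 306 and 276 CPM in RA_0 and 2666 and 680.4 CPM in AP_1h. Its partner in wasting Fbxo32, or atrogin-1, was at 21.2 and 33.1 CPM in RA_0 and 164 and 39.5 CPM in AP_1h. In both, PLA_1h was above RA_0 too, at 468 and 646 and 78.9 and 93.0 CPM.

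Foxo1 itself was at 8.59 and 10.5 CPM in RA_0 and 48.2 and 21.8 CPM in AP_1h, and Ctsl1, the lysosomal cathepsin L, at 148 and 176 CPM in RA_0 and 867 and 229.8 CPM in AP_1h. Mstn, or myostatin, which holds back muscle growth, was at 15.3 and 15.6 CPM in RA_0 and 47.0 and 22.1 CPM in AP_1h and did not meet the rule. Gadd45a, a gene of growth arrest that also rises in denervated muscle, was at 38.9 and 87.9 CPM in RA_0 and 1109 and 526 CPM in AP_1h, a difference of 3.68 ± 0.70. The proteasome, the machine these ligases feed, had no member that met the rule: 0 of 31, with a median of 0.21 that was -0.05 without RA_0 replicate 2 and -0.02 without AP_1h replicate 1.

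**Figure D3:**
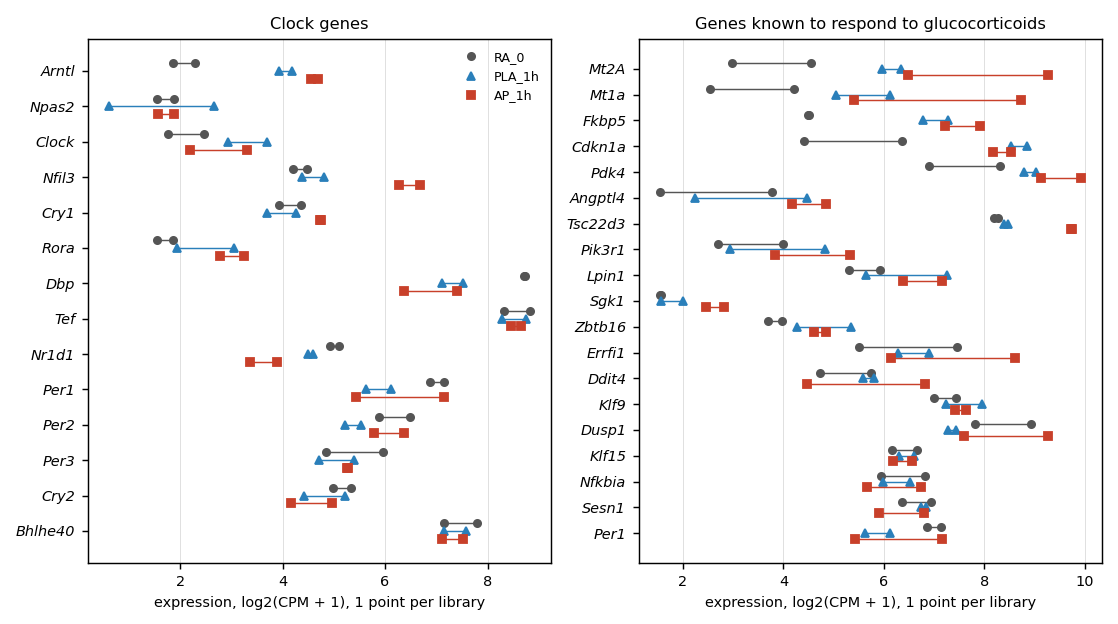
The x axis is expression as log2(CPM + 1) and each point is 1 library of RA_0 (grey circles), PLA_1h (blue triangles) or AP_1h (red squares), with a line joining the 2 libraries of a group, for clock genes and for glucocorticoid targets. Arntl and Nfil3 lie higher and Dbp and Nr1d1 lower in AP_1h than in RA_0, and Tsc22d3 is high in AP_1h with PLA_1h next to RA_0.

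Genes of the neuromuscular synapse, many of which rise when a muscle loses its nerve, leaned the same way. Of 17 members, 7 met the 2-fold rule on the high side and 1 on the low side, with a median of 0.40, while the median of PLA_1h against RA_0 was 0.43. Myog, or myogenin, the factor that drives these genes, was at 30.1 and 45.9 CPM in RA_0 and 483 and 179 CPM in AP_1h, a difference of 2.95 ± 0.77. Chrna1, the alpha subunit of the acetylcholine receptor, was at 18.4 and 22.4 CPM in RA_0 and 128 and 62.1 CPM in AP_1h. Musk, the kinase that gathers the receptors at the synapse, was at 1.67 and 7.43 CPM in RA_0 and 35.1 and 47.0 CPM in AP_1h. In each of the 3, both AP_1h libraries stood above both RA_0 libraries.

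PLA_1h was uneven for these 3 genes, with replicate 1 high and replicate 2 nearer RA_0: 192 and 37.0 CPM for Chrna1, 20.9 and 5.09 CPM for Musk and 179 and 54.1 CPM for Myog. Of all 17 members, 5 met the 2-fold rule on the high side in PLA_1h against RA_0 and 1 on the low side. Chrnd, the delta subunit, was at 34.8 and 14.9 CPM in RA_0 and 82.7 and 63.8 CPM in AP_1h and did not meet the rule. Runx1, which preserves denervated fibres, was at 4.77 and 3.27 CPM in RA_0 and 20.4 and 18.8 CPM in AP_1h, and Ncam1, an adhesion molecule of denervated fibres, at 16.9 and 21.2 CPM in RA_0 and 61.2 and 28.0 CPM in AP_1h. The anchors of acetylcholinesterase went apart, as Prima1 was at 18.1 and 20.9 CPM in RA_0 and 406 and 129 CPM in AP_1h and Colq, the collagen tail of the enzyme, was at 10.0 and 6.24 CPM in RA_0 and 2.16 and 2.1 CPM in AP_1h. Both PLA_1h libraries were above both RA_0 libraries for Runx1 (30.2 and 11.6 CPM), Ncam1 (112 and 61.2 CPM) and Prima1 (77.3 and 63.7 CPM).

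The promoter of Chrna1 (chr3:78877354-78877603 on GRCr8, minus strand) is shown because myogenin and MYOD are known to act on such genes through the muscle E-box, CAGCTG, which stands in capitals.
Chrna1: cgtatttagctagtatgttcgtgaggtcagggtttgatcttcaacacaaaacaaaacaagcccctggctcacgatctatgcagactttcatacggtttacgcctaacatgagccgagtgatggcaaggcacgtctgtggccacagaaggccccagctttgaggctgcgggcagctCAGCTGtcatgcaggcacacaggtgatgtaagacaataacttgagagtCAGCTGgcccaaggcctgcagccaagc
It held 2 copies. At least 2 were found in 1.04% of all promoters and at least 1 in 12%. Of 13 matched genes of the synapse list, 8 held at least 1, among them Chrng, which stood outside the comparison. Chrna1 was the only one of them with 2, and Myog, Chrnd and Runx1 held 0.

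Other myogenic genes showed no shared direction. Of 11 members, 2 met the 2-fold rule on the high side and 1 on the low side, with a median of -0.11 whose sign flipped without RA_0 replicate 1, RA_0 replicate 2 or AP_1h replicate 1 and under total-count scaling (0.04). Myf6, or MRF4, the factor of mature fibres, was at 179 and 144 CPM in RA_0 and 821 and 915 CPM in AP_1h. Myod1 was at 30.8 and 174 CPM in RA_0 and 74.3 and 141 CPM in AP_1h, with RA_0 replicate 1 low. Myh3, the embryonic myosin, was at 259 and 291 CPM in RA_0 and 61.2 and 112 CPM in AP_1h, and the neonatal Myh8 was at 1827 and 1202 CPM in RA_0 and 590.4 and 1050.1 CPM in AP_1h without meeting the rule.

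Among tubulins and their partners, 2 of 22 members met the 2-fold rule and the median was 0.07, with a sign that flipped without RA_0 replicate 2 or AP_1h replicate 1. Tubb6, a beta tubulin of regenerating and dystrophic fibres, was at 20.8 and 18.7 CPM in RA_0 and 330.0 and 97.4 CPM in AP_1h, with PLA_1h at 103 and 63.9 CPM. Dclk1, a kinase that binds microtubules, was at 2.62 and 10.1 CPM in RA_0 and 73.8 and 119.5 CPM in AP_1h. PLA_1h replicate 1 was the highest of all for Dclk1, at 531 and 41.2 CPM in the 2 libraries. No other tubulin met the rule. Tuba1b, an alpha tubulin, was at 119 and 96.4 CPM in RA_0 and 179 and 139 CPM in AP_1h, and Tubb3, a tubulin known from neurons, at 1.43 and 0.446 CPM in RA_0 and 4.54 and 1.54 CPM in AP_1h, each with both AP_1h libraries above both RA_0 libraries.

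The list of slow fibres was the most uniform of the comparison. All 13 members had both AP_1h libraries below both RA_0 libraries (background 21.0%), 11 met the 2-fold rule (background 3.59%), and the median was -3.5, from -2.72 without RA_0 replicate 1 to -3.99 without RA_0 replicate 2. The members are genes of the same fibre type and are not independent of each other. None was called: the smallest limma adjusted p of the list was 0.241. The spread in that fit comes from all 5 groups. Within the groups sampled at 34 days Myh7 was far apart, at 4064 and 813 CPM after acupuncture and 11934 and 499 CPM after placebo. limma fitted on the 4 compared libraries alone called 10 of the 13, DESeq2 called 2, and edgeR and limma-voom called 0. The summed level was 23316 and 11802 CPM in RA_0, 1211 and 1410.3 CPM in AP_1h and 5158 and 2221 CPM in PLA_1h. The PLA_1h libraries thus lay between those of the other groups, with a median difference of -2.32 from RA_0.

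Myh7, the slow myosin heavy chain, stood at 7398 and 4565 CPM in RA_0 and 361 and 372 CPM in AP_1h, a difference of -3.98 ± 1.29. PLA_1h was at 2235 and 579 CPM. Tnni1, the slow troponin I, was at 1472 and 828 CPM in RA_0 and 74.7 and 94.6 CPM in AP_1h, and Tnnc1, the troponin C of slow and heart muscle, at 1798 and 1019 CPM in RA_0 and 111 and 123 CPM in AP_1h. The slow light chains behaved alike, with Myl2 at 2232 and 873 CPM in RA_0 and 88.4 and 92.5 CPM in AP_1h and Myl3 at 5177 and 1756 CPM in RA_0 and 231 and 307 CPM in AP_1h. Atp2a2, the gene of the calcium pump SERCA2, was at 12.6 and 17.8 CPM in RA_0 and 3.68 and 2.94 CPM in AP_1h. The transcript counted for Atp2a2 carries the RefSeq prefix of a non-coding RNA, so its value need not stand for the coding message. Pln, phospholamban, which holds that pump back, was at 14.1 and 7.87 CPM in RA_0 and 2.92 and 3.22 CPM in AP_1h. Myh6, the alpha myosin of heart, was at 1952 and 1113 CPM in RA_0 and 98.2 and 96.4 CPM in AP_1h. It shares much of its sequence with Myh7, and reads that the counting could not place between them make its value uncertain. In bulk tissue, fewer fibres or cells of a type in a sample and less RNA from each of them cannot be told apart, here and for every cell type below.

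Fast-fibre genes had no member that met the 2-fold rule among 14, and their median of 0.05 changed sign without RA_0 replicate 2 (-0.38) or AP_1h replicate 2 (-0.36). Within the list, the myosins of the faster oxidative fibres were lower in both AP_1h libraries: Myh2, of type IIA fibres, was at 11133 and 11502 CPM in RA_0 and 2938 and 5131 CPM in AP_1h, and Myh1, of type IIX fibres, at 36269 and 25919.6 CPM in RA_0 and 6070.1 and 10229.8 CPM in AP_1h. Myh4, of type IIB fibres, was at 32281 and 23345 CPM in RA_0 and 34987 and 65741 CPM in AP_1h, higher in both. These myosin genes are close in sequence, so reads split between them are uncertain, and PLA_1h was at 34886 and 38430.1 CPM for Myh1 and 18648 and 58099.6 CPM for Myh4. Pvalb, parvalbumin, a calcium buffer of fast fibres, was at 5545 and 6844 CPM in RA_0 and 6025 and 14053 CPM in AP_1h, and Actn3, the fast alpha-actinin, at 10303 and 6347 CPM in RA_0 and 9385 and 12019 CPM in AP_1h; the groups overlapped in both.

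**Figure D4:**
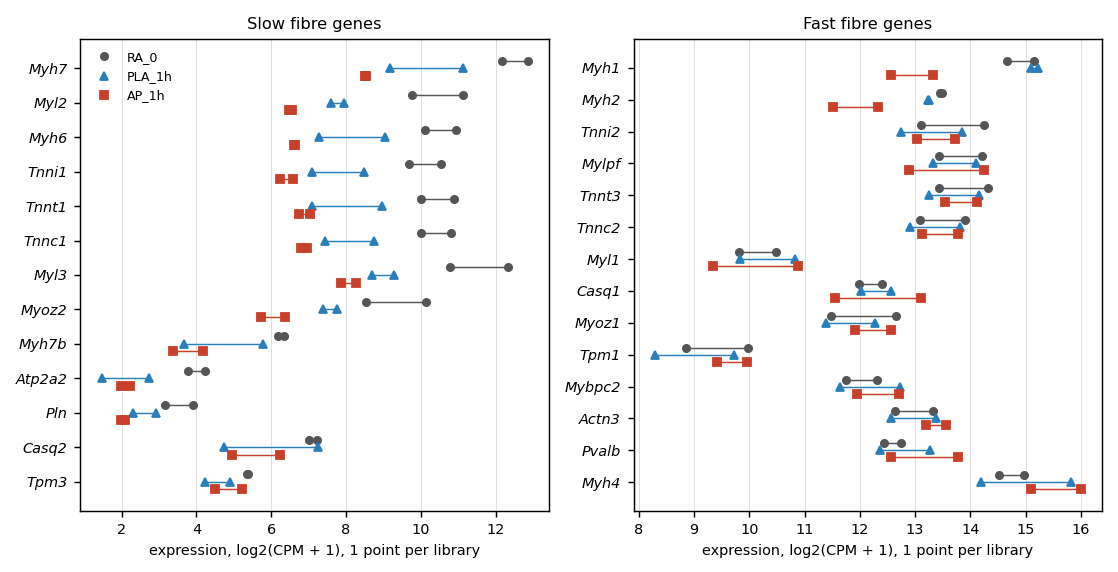
The x axis is expression as log2(CPM + 1) and each point is 1 library of RA_0 (grey circles), PLA_1h (blue triangles) or AP_1h (red squares), with a line joining the 2 libraries of a group, for genes of slow and of fast fibres. All slow-fibre genes lie lower in both AP_1h libraries than in both RA_0 libraries, and all fast-fibre genes overlap between these groups except the myosins Myh1, Myh2 and Myh4.

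Among general muscle markers, 2 of 7 met the 2-fold rule on the low side and all 7 differences were negative, with a median of -1.19, -0.70 without RA_0 replicate 1 and -0.72 without AP_1h replicate 1. Mybpc1, the slow form of myosin-binding protein C, was at 6682 and 9390.2 CPM in RA_0 and 1228 and 1339 CPM in AP_1h, and PLA_1h at 11126 and 7493 CPM. Mb, the oxygen store myoglobin, was at 26405 and 14869 CPM in RA_0 and 7067 and 7719 CPM in AP_1h, and Acta1, skeletal actin, at 134964 and 68102 CPM in RA_0 and 30415 and 58013 CPM in AP_1h, neither of which met the rule. The summed level of the list was 240941 and 127649 CPM in RA_0 and 77324 and 116941 CPM in AP_1h, and its part in the other results was not tested.

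Genes of the Z-disc and of load sensing had a median of -1.06, with 1 of 16 members higher and 5 lower by the 2-fold rule, and the median was -0.50 without RA_0 replicate 1 and -0.25 without AP_1h replicate 1. Actn2, the alpha-actinin that crosslinks actin at the Z-disc, was at 4674 and 1862 CPM in RA_0 and 469 and 1092 CPM in AP_1h. Fhl1, a LIM protein of the sarcomere, was at 289 and 254 CPM in RA_0 and 29.8 and 97.5 CPM in AP_1h, and Lmcd1, another LIM protein, at 272 and 150.0 CPM in RA_0 and 40.8 and 66.9 CPM in AP_1h. PLA_1h stood at 303 and 219.9 CPM for Fhl1 and 103 and 166 CPM for Lmcd1. Ankrd1, a protein induced by stretch and injury, met the rule on the high side although its groups overlapped. It was at 23.4 and 190.1 CPM in RA_0 and 151 and 732 CPM in AP_1h. PLA_1h, at 463 and 323 CPM, met the rule against RA_0 too, with a difference of 2.51 beside 2.29 for AP_1h. Ankrd2, the relative of Ankrd1 in slow fibres, was at 349.7 and 25.7 CPM in RA_0 with replicate 1 far above replicate 2. It was at 14.9 and 16.1 CPM in AP_1h. PLA_1h was lower still for Ankrd2, at 7.53 and 9.30 CPM, and met the rule there on the low side.

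Oxidative genes were lower as a group. All 72 members of the oxidative phosphorylation list had a negative difference, 40 had both AP_1h libraries below both RA_0 libraries (background 21.0%), 4 met the 2-fold rule on the low side and 0 on the high side. The median was -0.87, -0.32 without RA_0 replicate 1 and -1.40 without RA_0 replicate 2, and RA_0 replicate 1 was the highest library on the summed level (64697 and 32442 CPM in RA_0, 20386 and 29774 CPM in AP_1h, 26984 and 52984 CPM in PLA_1h). PLA_1h replicate 2 lay between the 2 RA_0 libraries. Ndufa9, of complex I, was at 703 and 297 CPM in RA_0 and 155 and 219.8 CPM in AP_1h, Sdhb, of complex II, at 894 and 449 CPM in RA_0 and 217 and 329 CPM in AP_1h, and Uqcrc1, of complex III, at 1068 and 585 CPM in RA_0 and 259 and 398 CPM in AP_1h.

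Genes of fat oxidation split. The median was -0.79 (-0.46 without RA_0 replicate 1), 18 of 26 members had both AP_1h libraries lower, and 2 met the 2-fold rule in each direction. On the low side were Cpt2, which hands fatty acids to the matrix of the mitochondrion (301 and 169 CPM in RA_0 and 84.1 and 75.3 CPM in AP_1h), and Hadh, a dehydrogenase of their breakdown (362 and 225 CPM in RA_0 and 93.3 and 141 CPM in AP_1h). On the high side were Ucp3 and Pdk4, both given above. Ppara, the receptor that drives this pathway, was at 11.5 and 9.51 CPM in RA_0 and 4.22 and 6.16 CPM in AP_1h and did not meet the rule.

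In glycolysis and glycogen use, 2 of 24 members met the 2-fold rule, both lower, and the median of -0.19 changed sign without RA_0 replicate 1 or AP_1h replicate 1. They were Ldhb, above, and Gys1, the glycogen synthase of muscle, at 863 and 477 CPM in RA_0 and 195 and 352 CPM in AP_1h. Ldha, the partner of Ldhb in fast fibres, was at 3405 and 1798 CPM in RA_0 and 1606 and 4388 CPM in AP_1h, and Pygm, glycogen phosphorylase, at 14013 and 9089 CPM in RA_0 and 10126 and 10637 CPM in AP_1h, both overlapping between groups. Slc2a4, the insulin-responsive glucose transporter GLUT4, was at 979 and 793 CPM in RA_0 and 657 and 649.9 CPM in AP_1h.

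Genes of cytokine signalling leaned to the high side, 21 of 24 with a positive difference. 2 of the 24, Il1rn among them, had reached the limit only through AP_1h and so were favoured to be higher there. Of the 24 members, 6 met the 2-fold rule on the high side, Il1rn included, and 0 on the low side, with a median of 0.76, 0.46 without RA_0 replicate 1, 0.29 without AP_1h replicate 1 and 1.24 without AP_1h replicate 2. Socs3, the feedback inhibitor of cytokine receptors, was at 1.43 and 4.90 CPM in RA_0 and 39.1 and 11.8 CPM in AP_1h, with PLA_1h at 9.02 and 1.93 CPM. Stat3, the factor these receptors switch on, was at 83.0 and 91.5 CPM in RA_0 and 189.5 and 205 CPM in AP_1h, and Il6r, the receptor of interleukin 6, at 17.7 and 21.1 CPM in RA_0 and 88.2 and 50 CPM in AP_1h. Il1rn, the antagonist of the interleukin 1 receptor, was at 0 and 0.891 CPM in RA_0 and 23.5 and 5.88 CPM in AP_1h, and PLA_1h at 1.49 and 0.351 CPM. Il1b itself was at 0.477 and 1.93 CPM in RA_0 and 4.32 and 1.54 CPM in AP_1h, and its groups overlapped.

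In the list of chemokines and their receptors, 9 of 21 members met the 2-fold rule on the high side and 1 on the low side. 9 members, Ccl2, Ccl7 and Cxcl13 among them, had reached the 1 CPM limit only through AP_1h and so were favoured to be higher there. The count of 9 by the rule therefore cannot be read apart from this limit. The median was 0.85, 0.08 without AP_1h replicate 1 and 1.48 without AP_1h replicate 2. Ccl2 and Ccl7, which attract monocytes, were at 0.716 and 1.63 CPM in RA_0 and 18.3 and 5.32 CPM in AP_1h and at 0.477 and 1.49 CPM in RA_0 and 13.7 and 5.46 CPM in AP_1h. Cxcl13, which attracts B cells, was at 0.477 and 2.38 CPM in RA_0 and 33.8 and 15.5 CPM in AP_1h. Cxcl11 had 3 reads in RA_0 and 45 in AP_1h, a ratio of 9.99 (3.21 to 50.3). Ccrl2, an atypical receptor that presents chemerin, was the member on the low side, at 7.87 and 5.50 CPM in RA_0 and 2.92 and 1.54 CPM in AP_1h, and PLA_1h was lower too at 2.28 and 1.93 CPM.

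All 24 members of the macrophage list had a positive difference and 10 met the 2-fold rule. Of the 24, 4 had reached the limit only through AP_1h, Mmp12 among them, and so were favoured to be higher there. The median was 1.09, 0.49 without AP_1h replicate 1 and 1.80 without AP_1h replicate 2. Gpnmb, a glycoprotein of lipid-laden and repair macrophages, was at 9.54 and 8.61 CPM in RA_0 and 509.7 and 34.6 CPM in AP_1h, so that its 2 AP_1h libraries were far apart. Lyz2, lysozyme, was at 3.10 and 3.27 CPM in RA_0 and 28.2 and 9.38 CPM in AP_1h, Mrc1, the mannose receptor, at 6.92 and 10.7 CPM in RA_0 and 36.1 and 19.3 CPM in AP_1h, and Cd163, the scavenger receptor of hemoglobin, at 3.34 and 4.46 CPM in RA_0 and 13.8 and 7.14 CPM in AP_1h. Csf1r, the receptor of the macrophage growth factor, was at 18.1 and 19.3 CPM in RA_0 and 34.6 and 14.1 CPM in AP_1h and Cd68 at 3.58 and 5.35 CPM in RA_0 and 24.0 and 3.78 CPM in AP_1h. The groups overlapped in both of these general markers. Mmp12, the macrophage elastase, had 0 reads in RA_0 and 69 in AP_1h, at least 15.3-fold higher when 3 reads over the group are taken as the floor.

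MHC class II genes, which present antigen, showed the same unevenness. None of 9 met the 2-fold rule and all 9 differences were positive, with a median of 1.12, 0.27 without AP_1h replicate 1 and 2.07 without AP_1h replicate 2. The invariant chain Cd74 was at 126 and 100.1 CPM in RA_0 and 442 and 135 CPM in AP_1h, and RT1-Da, a class II alpha chain, at 45.6 and 35.8 CPM in RA_0 and 184 and 64.8 CPM in AP_1h. The summed level was 1084 and 345 CPM in AP_1h, 281 and 233 CPM in RA_0 and 329 and 318 CPM in PLA_1h. The RT1 genes are near copies of each other, so their counts are uncertain. Among cathepsins and their inhibitors, Cst7 was called and 3 of 14 members met the 2-fold rule in all, the others being Ctsl1 and Ctss, the cathepsin S of antigen-presenting cells, at 8.11 and 8.91 CPM in RA_0 and 42.5 and 16.9 CPM in AP_1h. Cathepsins of general lysosomes were close to RA_0, with Ctsd at 635 and 515 CPM in RA_0 and 585 and 414 CPM in AP_1h and Ctsc, which cystatin F inhibits, at 72.0 and 87.8 CPM in RA_0 and 68.3 and 82.7 CPM in AP_1h. The summed macrophage level, 1160.0 and 273 CPM in AP_1h, was also above both RA_0 libraries, and its part in the rise of Cst7 and in the cytokine, chemokine and MHC class II lists was not tested.

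Interferon and MHC class I genes had 4 of 26 members above the 2-fold rule and a median of 0.15, -0.08 without AP_1h replicate 1. B2m, the light chain of class I molecules, was at 526 and 640.0 CPM in RA_0 and 1038 and 1714 CPM in AP_1h, with PLA_1h at 1565 and 1067 CPM. Ubd, a ubiquitin-like protein induced by interferon gamma, was at 2.62 and 3.86 CPM in RA_0 and 16.4 and 13.7 CPM in AP_1h, and PLA_1h was above both at 28.6 and 32.8 CPM. Few neutrophil and lymphocyte markers reached the limit, 3 of 12 and 3 of 19 measured. S100a8, of neutrophils, was at 1.67 and 1.34 CPM in RA_0 and 3.89 and 0.420 CPM in AP_1h, and Cd4, of T cells and macrophages, at 5.25 and 4.31 CPM in RA_0 and 9.73 and 2.94 CPM in AP_1h; neither met the rule.

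**Figure D5:**
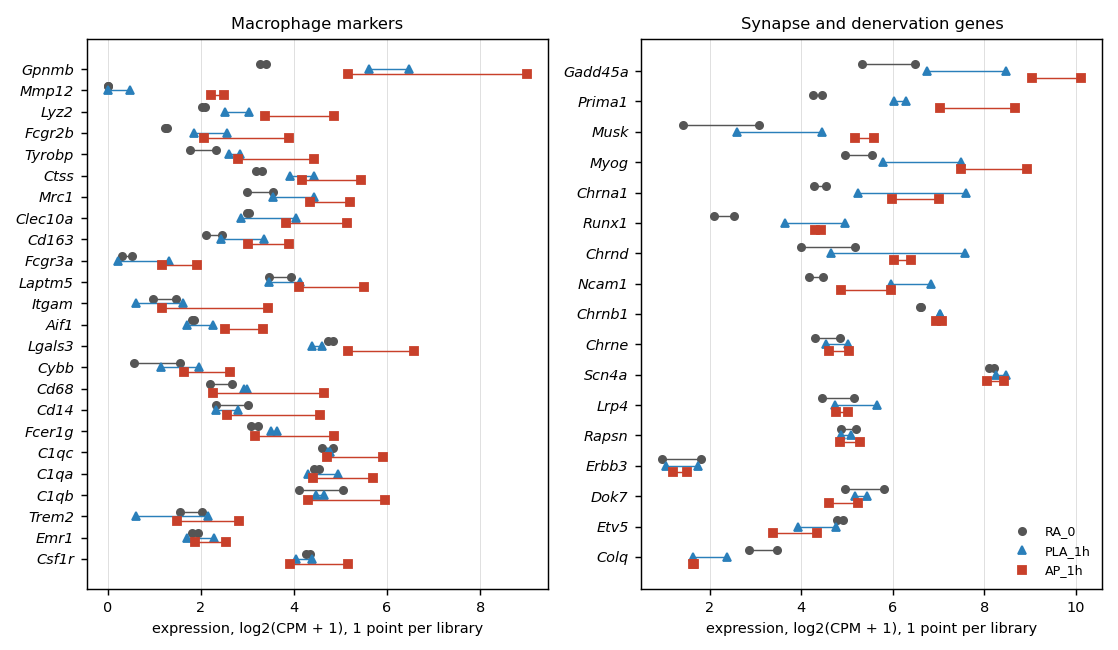
The x axis is expression as log2(CPM + 1) and each point is 1 library of RA_0 (grey circles), PLA_1h (blue triangles) or AP_1h (red squares), with a line joining the 2 libraries of a group, for macrophage markers and for synapse and denervation genes. The 2 AP_1h libraries are far apart for Gpnmb, AP_1h overlaps RA_0 for 10 of the 24 macrophage markers, and 1 of the 2 PLA_1h libraries exceeds both AP_1h libraries for Chrna1.

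Immediate early genes, which cells switch on within minutes of a stimulus, did not differ together. Of 21 members, 1 met the 2-fold rule in each direction, and the median of 0.37 was -0.58 without AP_1h replicate 1. Nr4a3, an orphan nuclear receptor that exercise and beta-adrenergic signals induce in muscle, was the higher one and had reached the limit only through AP_1h, at 0.954 and 1.19 CPM in RA_0 and 15.2 and 10.2 CPM in AP_1h, and PLA_1h was near RA_0 at 3.17 and 1.40 CPM. Arc, an activity-regulated gene, was the lower one at 16.7 and 33.6 CPM in RA_0 and 14.5 and 1.68 CPM in AP_1h. The replicates of Fos and Egr1 were apart within each group, with Fos at 21.7 and 123 CPM in RA_0 and 137 and 37.1 CPM in AP_1h and Egr1 at 63.5 and 222 CPM in RA_0 and 254 and 26.0 CPM in AP_1h.

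Stress genes were mixed. In the list of the integrated stress response, 1 of 15 members met the rule in each direction: Gadd45a, above, and Atf5, which was lower at 115 and 112 CPM in RA_0 and 56.3 and 46.6 CPM in AP_1h. The median was 0.38 and changed sign without AP_1h replicate 1. Atf4, the factor of this response, was at 653 and 295 CPM in RA_0 and 423 and 347 CPM in AP_1h, and Hspa5, the chaperone of the endoplasmic reticulum, at 266 and 272 CPM in RA_0 and 371 and 348 CPM in AP_1h. Of the heat shock list, 1 of 19 members met the rule, Hsp90aa1, the inducible HSP90, at 38.6 and 46.3 CPM in RA_0 and 73.8 and 113 CPM in AP_1h. The inducible Hspa1b was at 3.34 and 2.97 CPM in RA_0 and 2.81 and 3.5 CPM in AP_1h, with overlapping groups. The small heat shock proteins of the sarcomere were lower without meeting the rule, Hspb6 at 5749 and 2850.4 CPM in RA_0 and 848 and 1503 CPM in AP_1h and Cryab at 6556 and 2837 CPM in RA_0 and 1592 and 1477 CPM in AP_1h.

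Part of the tendon list was far lower in AP_1h, with RA_0 replicate 2 the highest library. Of 14 members, 5 met the 2-fold rule on the low side and 0 on the high side. 4 of these 5 had reached the limit only through RA_0 and so were favoured to be lower in AP_1h. The median was -0.52, -0.07 without RA_0 replicate 2 and -0.80 without RA_0 replicate 1. Fmod, the proteoglycan fibromodulin, was at 37.7 and 199 CPM in RA_0 and 10.8 and 4.90 CPM in AP_1h, and PLA_1h at 53.1 and 107 CPM. Tnmd, tenomodulin, the defining membrane protein of tendon cells, was at 5.96 and 15.7 CPM in RA_0 and 0.216 and 0.420 CPM in AP_1h, and Kera, keratocan, at 11 and 50.6 CPM in RA_0 and 0.649 and 0.280 CPM in AP_1h. Cilp2 had 254 reads in RA_0 and 3 in AP_1h, 127-fold lower at equal depth with an exact counting interval of 43 to 620. Scx, the factor that specifies tendon, did not follow, at 35.5 and 16 CPM in RA_0 and 50.9 and 33.0 CPM in AP_1h, nor did Prg4, the joint lubricant, at 40.8 and 44.6 CPM in RA_0 and 65.4 and 70.8 CPM in AP_1h.

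Collagens did not differ as a list: 0 of 13 met the rule, and the median of 0.01 changed sign without RA_0 replicate 1 or AP_1h replicate 1. Col1a1 was at 269 and 1248 CPM in RA_0 and 878 and 397 CPM in AP_1h, with RA_0 replicate 2 high, and Col3a1, of loose connective tissue and early repair, at 403 and 537 CPM in RA_0 and 1178 and 746 CPM in AP_1h. Among matrix proteases and their inhibitors, 4 of 17 members met the rule, all higher. 2 of these 4, Mmp12 and Adamts4, had reached the limit only through AP_1h and so were favoured to be higher there. The median was -0.23, from -0.39 without AP_1h replicate 1 to -0.04 without AP_1h replicate 2, and -0.38 and -0.06 without RA_0 replicates 1 and 2. They were Mmp12, Timp1, an inhibitor of metalloproteases induced in injury (4.06 and 5.35 CPM in RA_0 and 25.4 and 9.38 CPM in AP_1h), Adamts4 (0 and 0.594 CPM in RA_0 and 6.49 and 3.08 CPM in AP_1h) and Adamts9 (8.59 and 13.4 CPM in RA_0 and 40.5 and 23.1 CPM in AP_1h), the last 2 being enzymes that cut proteoglycans. PLA_1h stood at 4.56 and 2.63 CPM for Timp1 and 0.991 and 0.526 CPM for Adamts4, near RA_0. Mmp2, the gelatinase of fibroblasts, was at 78.0 and 119 CPM in RA_0 and 81.3 and 31.3 CPM in AP_1h.

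In the list of repair and growth factors, 3 of 23 members were higher and 2 lower by the 2-fold rule, 1 of the higher ones having reached the limit only through AP_1h, with a median of 0.12 that changed sign without RA_0 replicate 1 or AP_1h replicate 1. Tgfbr1, a receptor of TGF-beta, was at 34.4 and 61.3 CPM in RA_0 and 128 and 83.8 CPM in AP_1h, and Met, the receptor of hepatocyte growth factor, at 8.35 and 11.9 CPM in RA_0 and 25.6 and 27.3 CPM in AP_1h. Pdgfb, a growth factor of pericytes, was lower at 33.2 and 27.2 CPM in RA_0 and 19.4 and 10.1 CPM in AP_1h, as was Bmp6 at 6.68 and 8.91 CPM in RA_0 and 3.24 and 2.24 CPM in AP_1h. The response genes of TGF-beta and stretch were uneven, with Ctgf at 78.5 and 124 CPM in RA_0 and 66.7 and 39.5 CPM in AP_1h and Cyr61 at 62.3 and 318 CPM in RA_0 and 509 and 179 CPM in AP_1h.

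Genes that mark position along the body were read because samples may differ in where they were taken. Of the Hox list, 1 of 10 members met the 2-fold rule, Hoxa10, which was lower as given above, and the median was -0.19, 0.00 without RA_0 replicate 1, -0.44 without RA_0 replicate 2 and -0.09 without AP_1h replicate 2. Hoxa9, of the same cluster, was at 1.91 and 3.12 CPM in RA_0 and 3.46 and 2.94 CPM in AP_1h, and Hoxc9, of another cluster, at 18.6 and 10.2 CPM in RA_0 and 15.5 and 8.82 CPM in AP_1h, with overlapping groups in both. Among other positional factors, 2 of 16 members were higher and 2 lower by the rule. Six2, a homeobox factor of connective tissue and muscle, was at 41.3 and 15.7 CPM in RA_0 and 2.38 and 4.62 CPM in AP_1h, with PLA_1h at 19.7 and 20 CPM. On the high side were Irx3 at 0 and 1.78 CPM in RA_0 and 7.24 and 3.92 CPM in AP_1h and Meis2 at 0.239 and 0.594 CPM in RA_0 and 3.03 and 2.66 CPM in AP_1h. Both had reached the limit only through AP_1h and so were favoured to be higher there. The part of sampling position in the other results was not tested.

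Other cells of the tissue varied as well. Endothelial genes had 2 of 15 members lower by the 2-fold rule, Esm1, a secreted product of sprouting endothelium, at 28.9 and 32.7 CPM in RA_0 and 5.73 and 3.36 CPM in AP_1h, and Cdh5, the cadherin of vessel walls, at 67.5 and 64.9 CPM in RA_0 and 36.4 and 21.5 CPM in AP_1h, while Pecam1, a general endothelial marker, was at 40.8 and 41.6 CPM in RA_0 and 55.2 and 30.8 CPM in AP_1h. Nerve sheath genes had 1 of 8 members lower, Sox10, the factor of Schwann cells, at 3.82 and 6.09 CPM in RA_0 and 2.38 and 1.12 CPM in AP_1h. All 8 were negative, with a median of -0.86 that was 0.07 without RA_0 replicate 2. Globin transcripts did not meet the rule in any of 5 members, with Hba-a2 at 391 and 176 CPM in RA_0 and 151 and 117 CPM in AP_1h. Of 8 adipocyte genes 1 met the rule, Thrsp, a factor of fat synthesis, at 4.06 and 18.7 CPM in RA_0 and 388 and 44.2 CPM in AP_1h, while Adipoq, adiponectin, was at 1.67 and 21.1 CPM in RA_0 and 3.89 and 1.82 CPM in AP_1h.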

How the data were processed

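The authors extracted RNA, made Illumina TruSeq RNA v2 libraries and sequenced them on a HiSeq instrument. Per the labels and methods, they used CASAVA 1.8.2, trimmed reads with cutadapt 1.2.1, aligned them to rn4 with Bowtie2 2.1.0 and counted them per UCSC transcript with HTSeq 0.5.4p3. The deposited signal is CPM scaled by TMM factors of edgeR 3.4.2. Values were whole multiples of 1 read for 100% of entries (tolerance 0.01 reads), so read counts were recovered for the count-based alternatives. Starts were taken to count from 0 in the table, because end minus start was a multiple of 3 for 1199 of 1204 olfactory receptor transcripts, and are printed with 1 added.

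Every transcript that reached 1 CPM in each library of any of the 5 groups was tested on log2(CPM + 1), which understates changes of low transcripts, in limma 3.58.1 (eBayes with trend, 10 libraries, 1 mean per group; 5 residual and 5.14 prior degrees of freedom). The 2-fold rule takes its thresholds from the methods of the study, which used limma-voom. Alternatives were other pseudocounts, filters, scalings and fits, edgeR 4.0.16, DESeq2 1.42.0 (R 4.3.3), a replicate block and each library left out; Python 3.11.15 and matplotlib 3.10.9 drew the figures. Scripts were tested on simulated data.

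Named are the calls, the 12 transcripts per direction with the smallest p among those meeting the 2-fold rule without overlap, and, per list, its main genes and up to 6 more by p; a few that this rule names are not reported here. Members and lists were chosen with earlier results of these data known. Promoters come from RefSeq (GRCr8), matched by transcript accession, 250 bases before the start.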

Additional observations from a re-analysis of the deposited data

How the results depend on the processing

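Which transcripts passed the adjusted test depended on the processing. Against 3 calls as reported, limma gave 1 with a pseudocount of 4, and 0 without a filter on low values, with total-count scaling in place of TMM, without the 20 most abundant transcripts, with the replicate number as a block and with voom weights. edgeR's quasi-likelihood test also gave 0. Beside these counts of 0, an unadjusted p under 0.05 was met by 1043, 615, 776, 809, 826 and 938 transcripts in that order. DESeq2 called 172 and limma on the 4 compared libraries alone called 108, and both sets held the 3 transcripts reported. Leaving out one library gave 0 to 6 calls, 0 for each of RA_0 replicate 1, RA_0 replicate 2, AP_1h replicate 1 and AP_1h replicate 2 (519, 749, 708 and 716 at an unadjusted p under 0.05). The fold change of Cst7, Arntl and RGD1561161 kept its sign in all 24 alternatives; they were called in 14, 10 and 10 of them. Of 341 named transcripts, 74 changed sign in at least 1.

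The total of the 2-fold rule moved less, but the transcripts that met it were not all the same. Of the 628, 606 also met it with DESeq2, 426 with total-count scaling and 383 with a pseudocount of 4. The set also changed when any of the 4 compared libraries was left out. The total of 628 was 386 with a pseudocount of 4, where 168 were higher and 218 lower. The 260 on the high side became 413 with the 4 libraries alone and 151 to 314 when one library was left out, the lowest without RA_0 replicate 1. The 368 on the low side became 239 with total-count scaling and stayed between 322 and 412 when one library was left out. Total-count scaling moved the median over all transcripts to 0.15, and leaving out the 20 most abundant moved it to 0.12, so that list medians within these values of 0 have no firm direction. The cause of these differences was not tested.

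The replicate numbers did not pair the libraries: RA_0 and AP_1h held different animals, and the deviations of same-numbered libraries of RA_0 and AP_1h correlated at -0.121. With the number as a block, the rule gave 258 higher and 365 lower transcripts. With 2 libraries a group and at most 9.25 reads per CPM, small differences were not detectable at this depth.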

Other observations

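Beyond the groups described so far, calcium entry and handling had 1 of 17 members higher and 3 lower by the 2-fold rule, with a median of -0.12 that changed sign under total-count scaling and without AP_1h replicate 1. Fam38a, today Piezo1, a channel opened by mechanical force, was at 11.5 and 23.5 CPM in RA_0 and 88.8 and 41.4 CPM in AP_1h, with PLA_1h at 41.1 and 10.5 CPM. Trpc1, a cation channel that had reached the limit only through RA_0, was lower at 2.15 and 2.67 CPM in RA_0 and 0.324 and 0.560 CPM in AP_1h, and PLA_1h was near RA_0 at 2.58 and 2.11 CPM. Cacnb2, a subunit of voltage-gated calcium channels, was at 5.96 and 6.09 CPM in RA_0 and 1.73 and 1.96 CPM in AP_1h, and Cacna1g, a T-type calcium channel, at 3.58 and 8.32 CPM in RA_0 and 1.84 and 1.40 CPM in AP_1h. Stim1, the sensor of calcium stores, was at 347 and 312 CPM in RA_0 and 252 and 259 CPM in AP_1h and did not meet the rule.

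In adenosine and purine signalling, 1 of 17 members met the rule, P2ry2, a receptor of extracellular ATP and UTP, which was lower at 67.5 and 41.0 CPM in RA_0 and 22.6 and 17.9 CPM in AP_1h. Adora2a, an adenosine receptor, was at 9.54 and 7.87 CPM in RA_0 and 7.89 and 3.22 CPM in AP_1h, Nt5e, which makes adenosine outside the cell, at 10.7 and 10.8 CPM in RA_0 and 9.62 and 5.60 CPM in AP_1h, and Ada, which breaks adenosine down, at 3.10 and 6.39 CPM in RA_0 and 17.2 and 4.62 CPM in AP_1h; none of the 3 met the rule. In the IGF system, 1 of 11 members met the rule, Igf2, at 3.10 and 3.86 CPM in RA_0 and 5.73 and 39.5 CPM in AP_1h, with only AP_1h replicate 2 clearly above the rest. Irs1, an adaptor of insulin and IGF receptors, was at 13.1 and 24.7 CPM in RA_0 and 16 and 55.6 CPM in AP_1h. Ribosomal protein genes, 77 members with 0 meeting the rule in either direction, had a median of 0.01 that moved between -0.43 without RA_0 replicate 2 and 0.45 without RA_0 replicate 1, and Rpl3 was at 85.2 and 92.5 CPM in RA_0 and 164 and 133 CPM in AP_1h.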
